A study of Mus musculus with 12 samples.

Results

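The genes described here are 9 that the oxygen-regulated transcription factor HIF-1 is known to induce and whose products restrain growth, repress transcription or adjust metabolism: Ankrd37, Ndrg1, Ddit4, Mxi1, Bhlhe40, Bhlhe41, Stc2, Ak4 and Rora. They were taken by symbol from the 48709 gene IDs of each count table. The symbols themselves were chosen with earlier results of these data known. All 9 were found, and all 9 passed the filter on low counts, which left 14408 genes to test.

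Read counts per gene came from 12 RNA sequencing libraries of mouse embryonic fibroblasts, which are connective tissue cells grown from embryos, of the strain C57BL/6. Isogenic WT cells and TAZKo cells, which lack tafazzin according to the series' design text, were each grown in normoxia or kept for 24 hours in a hypoxia workstation, with 3 samples in each of the 4 groups. Tafazzin, the product of the gene Taz, remodels cardiolipin, a lipid of the inner mitochondrial membrane. The comparisons ask how the response to low oxygen differs when tafazzin is missing. The oxygen level is not given in the labels. Nor do they say how the TAZKo cells were made, whether a genotype is 1 clone or whether the 3 samples of a group were separate cultures, so p-values measure the spread between these samples, which may be technical.

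Total counts ranged from 21039451 to 31204510 per library, at which 3 counts correspond to 0.096 to 0.143 CPM (a gene's counts relative to the scaled library total). The summed level of 10 fibroblast markers was 10400 to 13300 CPM, with 9 of the 10 above a mean of 1 CPM, while Thy1 stayed at group means of 0.116 to 0.215 CPM. Single fibroblast markers differed between genotypes in both directions. In normoxia Col1a1 stood at 2830 CPM in WT and 1150 in TAZKo, and Pdgfrb at 49.6 and 104. Taz itself was higher in every library labelled TAZKo than in every library labelled WT of the same condition (log2 difference 0.29 in normoxia and 0.43 in hypoxia). Counts over the whole gene do not show whether its transcript is intact, so the direction of each genotype difference below rests on the labels. The names of the tables give 2 sequencing lanes, numbered 4 and 5. Within lanes, the differences of the 9 genes had the sign of the pooled value in 88 of 90 cases, including 36 of 36 for hypoxia against normoxia. The exceptions were Rora between genotypes in normoxia (0.01 in lane 4, against -0.37 pooled) and Ddit4 between genotypes in hypoxia (0 in lane 5, against 0.15 pooled). Pooled and within-lane values share libraries, so the count of signs is not an independent check. The genotype values in normoxia in lane 5 and in hypoxia in lane 4 rest on 2 libraries each.

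HIF-1 is a pair of proteins, HIF-1a and ARNT. Oxygen-dependent hydroxylases mark HIF-1a for destruction, so in low oxygen it accumulates, joins ARNT and binds hypoxia response elements, short DNA sites with the core letters ACGTG or GCGTG. Among the genes it switches on are brakes that lower the cell's demand for energy. Ddit4 (also called REDD1) acts through the TSC1-TSC2 complex to turn off mTORC1, the kinase complex that drives protein synthesis. Mxi1 pairs with MAX and represses genes that MYC activates, and Ndrg1 is a stress-induced protein named for its repression by N-MYC. Bhlhe40 and Bhlhe41 (DEC1 and DEC2) are repressors that bind E-boxes, the letters CACGTG, and act within the circadian clock, where the nuclear receptor Rora activates Arntl. Stc2 is a secreted glycoprotein, Ak4 an adenylate kinase of the mitochondrial matrix, and Ankrd37 a small protein of ankyrin repeats.

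The core letters of the hypoxia response element were looked for on both strands of the RefSeq promoter windows (GRCm38.p6; 250 bases before to 50 after a transcript start), which matched 7 of the 9 genes and not Ndrg1 or Bhlhe40. Some genes have several starts, giving 12 windows. These are not independent, since windows 1, 2 and 3 of Ak4 overlap and hold the same 2 GCGTG matches. ACGTG or GCGTG was found in 11 of the 12 windows, against 43.8% of 32851 windows in all, and in 7 of 7 genes, against 46.7% of 27025 genes. ACGTG alone was in 6 of 7 genes (21.8% of all), and GCGTG alone was in 6 of 7 (35.2% of all). The E-box CACGTG, which contains ACGTG, was in 2 of 7, Bhlhe41 and Ak4 (8.09% of all). AGGTCA, the half-site core of nuclear receptors such as Rora, was in 1 of 7 (18.1% of all). A match describes letters and does not show binding. The parts of 5 windows that lie before the start and outside GENCODE exons are printed because they show how differently the core letters are placed in genes that rose together. They leave out further matches in the same windows. These are ACGTG at base -6 from the start in Ankrd37, and GCGTG at -119 and -66 in Bhlhe41. Capitals mark ACGTG or GCGTG as read on either strand (CACGT and CACGC where the core is on the other strand).
Ankrd37 (chr8:45999868-46000100, minus strand): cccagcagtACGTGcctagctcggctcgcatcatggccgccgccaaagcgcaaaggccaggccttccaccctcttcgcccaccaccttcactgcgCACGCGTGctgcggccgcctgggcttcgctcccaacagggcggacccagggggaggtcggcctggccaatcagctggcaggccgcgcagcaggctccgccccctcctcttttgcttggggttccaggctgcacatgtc
Ddit4 (chr10:59951835-59952020, minus strand): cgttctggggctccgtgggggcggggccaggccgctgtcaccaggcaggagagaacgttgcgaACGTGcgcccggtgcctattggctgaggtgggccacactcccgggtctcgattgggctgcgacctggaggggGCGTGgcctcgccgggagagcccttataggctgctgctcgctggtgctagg
Bhlhe41 (chr6:145865559-145865670, minus strand): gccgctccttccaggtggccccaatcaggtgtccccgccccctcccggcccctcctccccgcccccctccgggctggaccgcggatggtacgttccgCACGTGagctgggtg
Stc2 (chr11:31370075-31370311, minus strand): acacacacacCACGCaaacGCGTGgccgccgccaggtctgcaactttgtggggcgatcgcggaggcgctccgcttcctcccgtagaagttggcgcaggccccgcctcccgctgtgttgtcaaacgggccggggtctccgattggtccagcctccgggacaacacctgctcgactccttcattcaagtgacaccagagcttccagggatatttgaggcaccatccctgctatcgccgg
Rora (chr9:68653536-68653785, plus strand): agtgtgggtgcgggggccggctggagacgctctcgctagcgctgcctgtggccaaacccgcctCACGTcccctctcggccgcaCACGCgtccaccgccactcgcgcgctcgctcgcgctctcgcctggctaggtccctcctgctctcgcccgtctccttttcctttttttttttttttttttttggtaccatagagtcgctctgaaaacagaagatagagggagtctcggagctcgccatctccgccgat
In Ankrd37 both strands carry GCGTG in the overlapping letters CACGCGTG, and a separate ACGTG lies near the far end of the stretch. In Bhlhe41 the capitals form an E-box, which reads ACGTG on both strands. The Ankrd37 stretch lies inside the span of the gene (chromosome 8, 45996902 to 46005707) but outside its annotated exons.

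All 9 genes rose in hypoxia in both genotypes. With edgeR's quasi-likelihood test (Benjamini-Hochberg adjusted p under 0.05), 26.0% of all tested genes rose in WT and 22.2% rose in TAZKo, and the median log2 change of the 9 genes was 3.25 in WT and 3.21 in TAZKo, against medians of 0.009 and -0.009 over all genes. In all 9, in each genotype, every hypoxia sample lay above every normoxia sample, as it did for 28.1% of all genes in WT and 30.3% in TAZKo. The lowest rise of the 9 in WT was that of Mxi1 at 4.06-fold. A rise of at least 4-fold was called for 2.41% of all genes in WT and 1.84% in TAZKo, and in TAZKo 3 of the 9 stayed below that fold: Mxi1, Ddit4 and Stc2. In a bulk library, more RNA per cell and more cells that hold the RNA cannot be told apart. The summed level of 5 immune markers was also higher in hypoxia (4.49 to 5.57 CPM against 11.7 to 13.9 CPM in WT), nearly all of it Cd68 and Csf1r. Adgre1 was at 0 in every library, and Ptprc and Cd3e had group means of at most 0.0116 and 0.042 CPM. The part of this summed level in these results was not tested. The 9 genes were chosen as HIF-1 targets with earlier results of these data known, so their direction is not independent evidence.

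**Figure D1:**
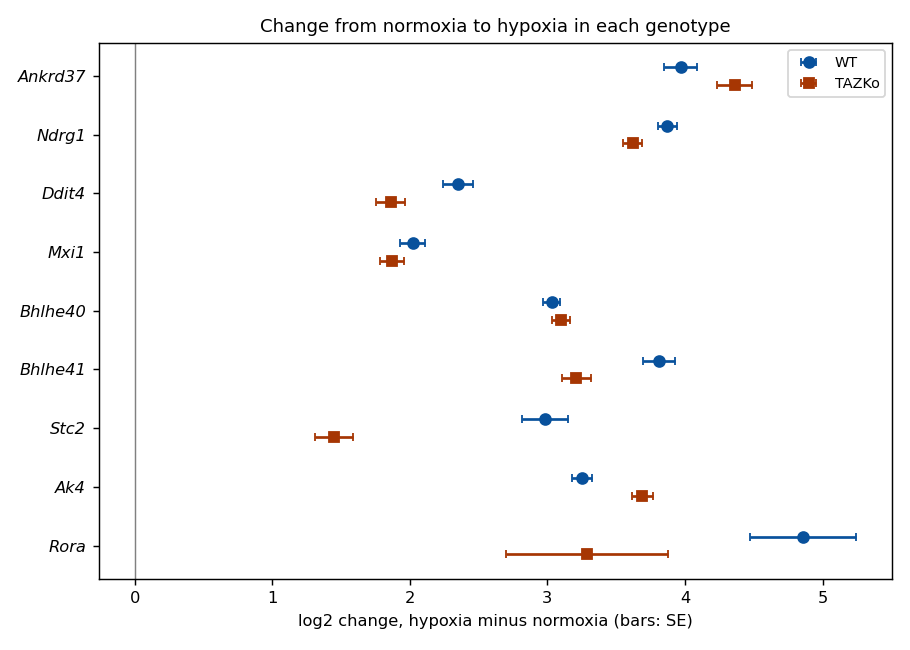
Log2 change from normoxia to hypoxia (x axis) of each of the 9 genes in WT (circles) and TAZKo (squares) from the edgeR fit, with bars of 1 standard error. Every point lies to the right of 0, and the gap between genotypes is widest for Rora and Stc2, where Rora also has the widest bars.

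Other known HIF-1 targets moved the same way. Of 20 such genes on a list, 19 rose in WT (median log2 change 2.55) and 18 rose in TAZKo (median 2.4). Of all genes, 26.0% rose in WT and 22.2% in TAZKo. Car12, a carbonic anhydrase, rose by 3.89 in WT and 3.93 in TAZKo, and Bnip3, a mitophagy receptor, rose by 3.87 and 4.32. Pfkfb4, an enzyme that sets the level of a glycolysis activator, missed the threshold in WT (0.05, adjusted p = 0.65) and fell by 0.32 on the log2 scale in TAZKo (adjusted p = 0.00897). Car9, another carbonic anhydrase, rose by 1.35 in WT and changed by 0.28 in TAZKo (adjusted p = 0.161). The transcripts of the HIF subunits moved little beside these: Hif1a rose by 0.63 in WT and 0.51 in TAZKo, and Arnt fell by 0.2 in WT and by 0.3 in TAZKo. These values describe transcripts, not the HIF-1a protein, whose amount oxygen controls.

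Between genotypes in normoxia, 8 of the 9 genes differed and they split evenly. Stc2, Bhlhe41, Ddit4 and Ndrg1 were higher in the libraries labelled TAZKo, and Ankrd37, Bhlhe40, Mxi1 and Ak4 were lower. The call of Ndrg1 was lost with DESeq2 size factors or upper quartile scaling (edgeR adjusted p = 0.07 and 0.0591), which left 3 higher and 4 lower. Over all genes, 15.6% were called higher and 14.9% lower. In hypoxia 3 of the 9 were lower in the libraries labelled TAZKo (Rora, Mxi1 and Bhlhe40) where 16.9% of all genes were called lower and 15.8% higher. None of the 9 was called higher in hypoxia by the main edgeR fit or by the DESeq2 Wald test. In the main fit Stc2 alone was higher without adjustment at the same threshold. Other edgeR settings called Stc2 higher, Ak4 with only the 6 samples compared (adjusted p = 0.0444), and Ddit4 without WT hypoxia replicate 3 (adjusted p = 0.0409). The median difference of the 9 genes was -0.32 in normoxia and -0.07 in hypoxia, against 0.01 and -0.008 over all genes. Only Bhlhe40 and Mxi1 passed the threshold in both conditions, each lower in TAZKo both times. The count of 3 in hypoxia became 5 without WT normoxia replicate 1 or TAZKo normoxia replicate 3, because Ankrd37 and Stc2 then passed.

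**Figure D2:**
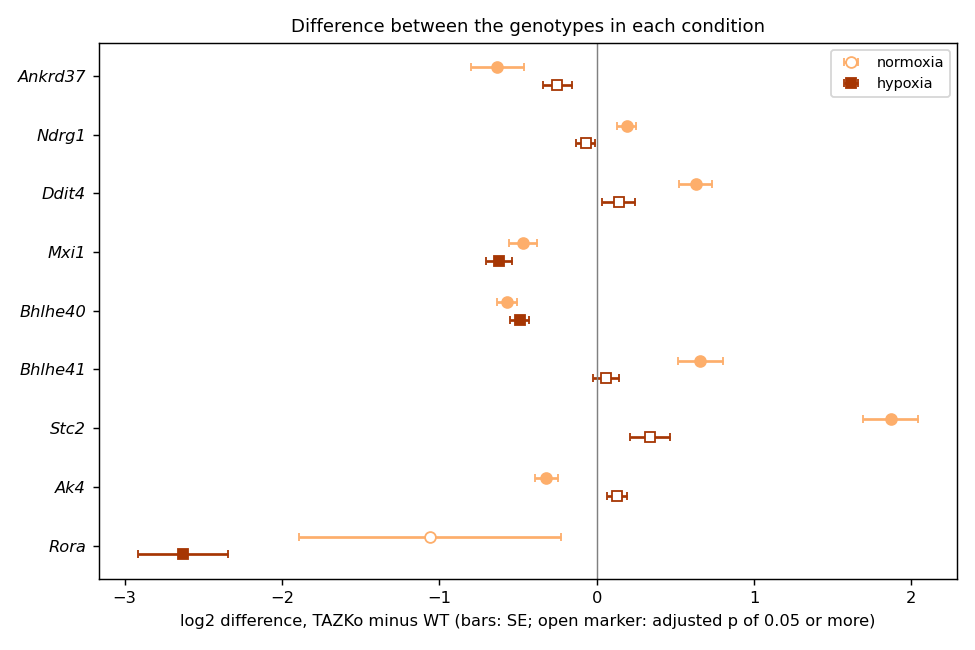
Log2 difference between TAZKo and WT (x axis) of the 9 genes in normoxia (circles) and in hypoxia (squares), with bars of 1 standard error. Filled markers have an edgeR adjusted p under 0.05 and open markers do not. Bhlhe40 and Mxi1 are lower in both conditions, Stc2 reaches 1.87 in normoxia, and Rora reaches -2.63 in hypoxia.

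Markers of other cell types also differed between the genotypes. The summed level of 5 endothelial markers was 18 to 21 CPM in WT normoxia and 14.5 to 20.5 CPM in WT hypoxia, against 5.64 to 7.48 CPM and 3.84 to 5.05 CPM in TAZKo, with Tek and Kdr making up nearly all of it and Cdh5 and Emcn at or near 0. The summed level of 5 muscle markers was 3.82 to 5.04 CPM in WT normoxia and 9.01 to 10.1 CPM in TAZKo normoxia, almost all of it Des, with Myod1 at 0. The 5 epithelial markers summed to 97.9 to 152 CPM, nearly all Krt18. The part of these levels in the genotype differences was not tested.

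Ddit4, the brake on mTORC1 (ENSMUSG00000020108, chromosome 10 from 59949669 to 59951834 in GRCm38), stood at 61.3, 50 and 52.8 CPM in the WT normoxia samples and at 242, 264 and 329 CPM in WT hypoxia. In TAZKo it stood at 84, 82.7 and 86.7 CPM in normoxia and at 330, 303 and 288 CPM in hypoxia. Every hypoxia sample lay above every normoxia sample, the TAZKo normoxia samples lay above all WT normoxia samples, and the genotypes overlapped in hypoxia. The rise was 5.09-fold in WT (log2 2.35, SE 0.11, adjusted p = 1.27e-09) and 3.63-fold in TAZKo (log2 1.86, SE 0.107, adjusted p = 1.57e-08). In normoxia Ddit4 was 1.54-fold higher in TAZKo (log2 0.63, SE 0.106, adjusted p = 0.000556). In hypoxia the difference was 0.14 (95% interval -0.08 to 0.36, adjusted p = 0.338). WT hypoxia replicate 3 was the highest of its group, and without it the difference was 0.269 (adjusted p = 0.0409). All tested genes of chromosome 10 had a median genotype difference of 0.31 in normoxia and 0.29 in hypoxia, and the part of this in the value for Ddit4 was not tested.

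Other genes that control mTORC1 moved in both directions. Of 18 on the list, 9 rose and 5 fell in WT, and 8 rose and 5 fell in TAZKo. The shares of all genes were 26.0% rising and 25.0% falling in WT, and 22.2% and 21.6% in TAZKo. Rragd, a GTPase that carries amino acid signals to mTORC1, rose by 2.18 in WT and 1.88 in TAZKo. In WT the next were Deptor, an mTOR-binding inhibitor (1.46), and Eif4ebp1, the translation repressor that mTORC1 phosphorylates (1.27). In TAZKo the next were Flcn (1.1) and Fnip1 (1.02), which form the folliculin complex that acts on Rag GTPases. The 5 that fell in both genotypes were Mtor, Rptor, Tbc1d7, Sesn1 and Sesn3, with changes from -0.33 to -0.86 in WT. In normoxia 6 of the 18 were higher in TAZKo, led by Deptor (2.3), the stress-induced inhibitor Sesn2 (1.76) and Rragd (1.18). Flcn alone of the 18 was lower (-0.26). Of all genes, 15.6% were called higher there and 14.9% lower. In hypoxia 4 of the 18 were higher, Deptor (1.25), Rragd (0.88), Sesn2 (0.64) and Sesn1 (0.23), against 15.8% of all genes.

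**Figure D3:**
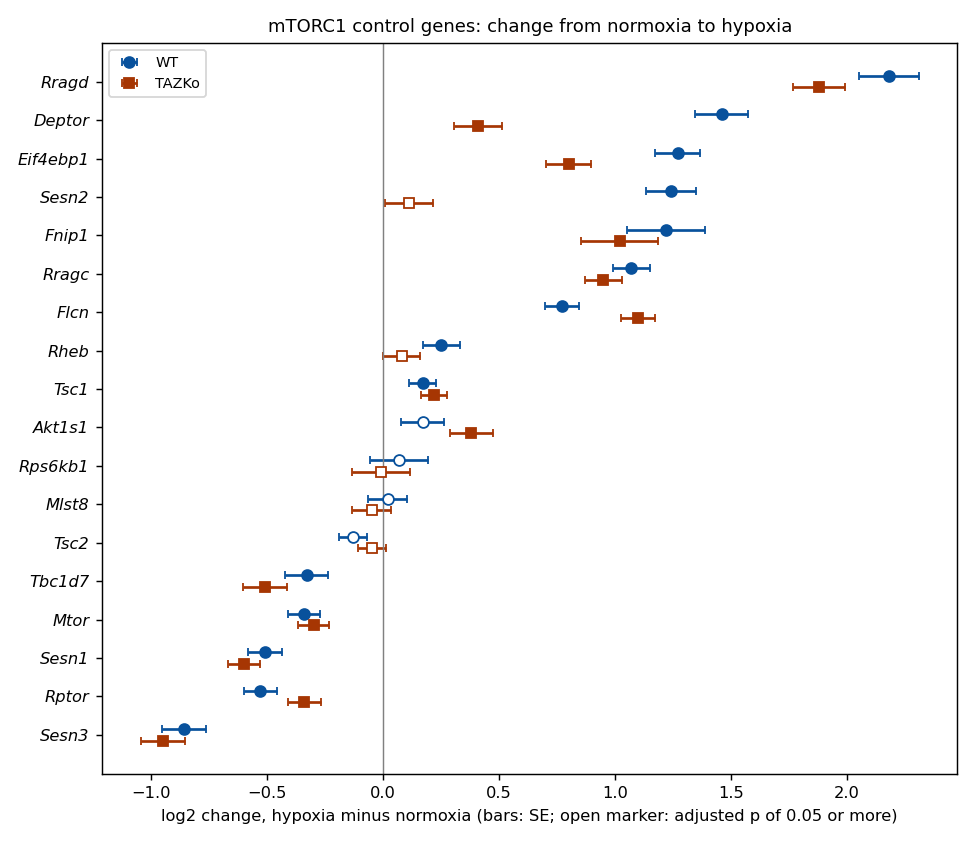
Log2 change from normoxia to hypoxia (x axis) of the 18 mTORC1 control genes in WT (circles) and TAZKo (squares), with bars of 1 standard error and open markers for an edgeR adjusted p of 0.05 or more. Rragd has the highest change in both genotypes, and for Deptor and Sesn2 the TAZKo value (0.41 and 0.11) lies well below the WT value (1.46 and 1.24).

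Mxi1, the MAX partner that opposes MYC (ENSMUSG00000025025, chromosome 19 from 53310518 to 53375810), stood at 47.8, 51.2 and 57.5 CPM in WT normoxia and at 229, 201 and 206 CPM in WT hypoxia. In TAZKo it stood at 33.8, 37.5 and 41.8 CPM in normoxia and at 140, 140 and 134 CPM in hypoxia. The 4 groups did not overlap. The rise was 4.06-fold in WT (log2 2.02, SE 0.0883, adjusted p = 6.59e-10) and 3.65-fold in TAZKo (log2 1.87, SE 0.0886, adjusted p = 2.14e-09), and the interaction, the rise in TAZKo minus that in WT, did not pass (-0.15, 95% interval -0.42 to 0.11, adjusted p = 0.589). Mxi1 was 1.38-fold lower in TAZKo in normoxia (adjusted p = 0.00119) and 1.54-fold lower in hypoxia (adjusted p = 8.55e-05). The tested genes of chromosome 19 had a median genotype difference of -0.27 in normoxia and -0.28 in hypoxia. Its part in the lower level of Mxi1 (log2 -0.47 and -0.62) was not tested.

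Ndrg1 (ENSMUSG00000005125, chromosome 15 from 66929318 to 66969640) stood at 147, 136 and 140 CPM in WT normoxia, at 2150, 1980 and 2070 CPM in WT hypoxia, at 167, 160 and 155 CPM in TAZKo normoxia and at 1970, 2110 and 1840 CPM in TAZKo hypoxia. Normoxia and hypoxia lay far apart, and the genotypes overlapped in hypoxia but not in normoxia. Its rise was 14.6-fold in WT (log2 3.87, SE 0.0694, adjusted p = 4.46e-13) and 12.3-fold in TAZKo (log2 3.62, SE 0.0685, adjusted p = 4.29e-13). The normoxia difference of 1.14-fold was close to the threshold (log2 0.19, adjusted p = 0.0368). It was lost in 16 of 21 alternative analyses, which gave adjusted p from 0.0165 to 0.194, and in 11 of the 12 that left out a library, all but the one without WT normoxia replicate 1. In hypoxia the difference was -0.07 (95% interval -0.2 to 0.07, adjusted p = 0.457).

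The paralogs of these genes did not share their rise as a group. Ndrg2 rose by 2.64 in WT and 3.02 in TAZKo, from 6.08 ± 0.482 CPM to 37.9 ± 5.2 CPM in WT (SD, n = 3). Ndrg3 fell by 0.48 in WT and by 0.21 in TAZKo, and Ndrg4 rose by 0.4 in WT and changed by -0.19 in TAZKo (adjusted p = 0.233). Ddit4l, the relative of Ddit4, rose by 0.76 in WT and 0.94 in TAZKo. Among the other MAX-binding repressors related to Mxi1, Mxd1 rose by 0.69 in WT and 0.3 in TAZKo, Mxd3 fell by 0.77 in WT and by 0.49 in TAZKo, and Mxd4 changed by 0.1 and 0.01 (adjusted p = 0.158 and 0.855). With library size alone as the scaling, the calls of Ndrg4 in WT and Mxd1 in TAZKo were lost (adjusted p = 0.0524 and 0.0672).

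In the wider MYC and MAX network, 7 of the 11 tested genes rose in each genotype, with 3 falling in WT and 2 in TAZKo. The shares of all genes were 26.0% rising and 25.0% falling in WT, and 22.2% and 21.6% in TAZKo. The activators were among those of the network that rose: Myc by 1.63 in WT and 1 in TAZKo, and Mycn by 0.98 in WT and 1.54 in TAZKo. The MAX-binding repressor Mnt rose by 0.98 and 1.08. Those of the network that fell were Mxd3 and Mlx in both genotypes and Mlxip in WT. Mycn was lower in TAZKo in normoxia (-1.26, adjusted p = 2.09e-07) and in hypoxia (-0.7, adjusted p = 2.96e-05). Of 15 growth genes that MYC is known to activate, 6 fell and 2 rose in WT, while 4 fell and 2 rose in TAZKo, with a median change of -0.1 in each. The falls of this list in TAZKo were near the share of all genes, and its rises were below that share in each genotype. Srm, which makes spermidine, fell by 0.57 in WT, and Cad, which starts pyrimidine synthesis, fell by 0.53, while the nucleolar protein Gnl3 rose by 0.56.

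Bhlhe40 (ENSMUSG00000030103, chromosome 6 from 108660629 to 108666925) stood at 48.7, 46.3 and 48.5 CPM in WT normoxia and at 374, 389 and 407 CPM in WT hypoxia. In TAZKo it stood at 33.2, 31.6 and 32.2 CPM in normoxia and at 280, 293 and 261 CPM in hypoxia. The 4 groups did not overlap, and TAZKo was the lower genotype in each condition. The rise was 8.15-fold in WT (log2 3.03, SE 0.0633, adjusted p = 7.89e-13) and 8.6-fold in TAZKo (log2 3.1, SE 0.0639, adjusted p = 5.42e-13), a difference of 0.08 (95% interval -0.1 to 0.26, adjusted p = 0.704). Bhlhe40 was 1.48-fold lower in TAZKo in normoxia (log2 -0.57, SE 0.0615, adjusted p = 1.21e-05) and 1.4-fold lower in hypoxia (log2 -0.49, SE 0.0579, adjusted p = 2.76e-05).

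Its paralog Bhlhe41 (ENSMUSG00000030256, chromosome 6 from 145858243 to 145865558) was scarcer per length, at 0.236 CPM per kilobase of exon in WT normoxia against 10.2 for Bhlhe40, and had another genotype pattern. It stood at 1.68, 1.62 and 1.45 CPM in WT normoxia, at 22.9, 21.6 and 22 CPM in WT hypoxia, at 2.52, 2.77 and 2.26 CPM in TAZKo normoxia and at 24.9, 23.8 and 20.7 CPM in TAZKo hypoxia. In normoxia every TAZKo sample lay above every WT sample, and in hypoxia the genotypes overlapped. The rise was 14-fold in WT (log2 3.81, SE 0.115, adjusted p = 1.87e-11) and 9.23-fold in TAZKo (log2 3.21, SE 0.106, adjusted p = 6e-11). In normoxia Bhlhe41 was 1.58-fold higher in TAZKo (log2 0.66, SE 0.143, adjusted p = 0.00308), and in hypoxia the difference was 0.06 (95% interval -0.12 to 0.24, adjusted p = 0.632). The interaction of -0.6 did not pass (95% interval -0.96 to -0.24, adjusted p = 0.0836). Among the alternatives it passed only with the replicate number as a block (-0.608, adjusted p = 0.0473). Of the exon bases of Bhlhe41, 19% are shared with an unclassified gene on the other strand, Gm43909, which had 81 counts over the 12 libraries.

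Rora (ENSMUSG00000032238, chromosome 9 from 68653786 to 69388246) was scarce. In normoxia the WT libraries held 0, 5 and 7 counts and the TAZKo libraries 3, 1 and 2. In hypoxia the WT libraries held 76, 110 and 160 counts and the TAZKo libraries 21, 23 and 17. These are 3.8, 4.94 and 5.82 CPM in WT hypoxia and 1.02, 0.796 and 0.592 CPM in TAZKo hypoxia. The hypoxia samples lay above the normoxia samples in each genotype, and the TAZKo hypoxia samples lay below all WT hypoxia samples. Summed over a group, 12 counts became 346 in WT, a ratio of 30.2 at equal depth (exact 95% counting interval 17.1 to 59), and 6 became 61 in TAZKo, a ratio of 10.3 (4.47 to 29.2). These intervals cover counting error only. In hypoxia Rora was 6.19-fold lower in TAZKo (log2 -2.63, SE 0.287, adjusted p = 1.3e-05), the greatest genotype difference among the 9. In normoxia no difference was detectable at this depth (-1.06, 95% interval -2.86 to 0.73, adjusted p = 0.371), and the interaction (-1.57, SE 1.03) did not pass either (adjusted p = 0.503). A mean of at least 5 CPM, used as a stricter filter, removed Rora from the test.

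Rorb, a paralog of Rora, had at most 2 counts in any library.

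Of 16 tested clock genes other than Bhlhe40, Bhlhe41 and Rora, 9 rose and 4 fell in WT, and 7 rose and 3 fell in TAZKo. The shares of all genes were 26.0% rising and 25.0% falling in WT, and 22.2% and 21.6% in TAZKo. The falls of the clock genes were near these shares. The highest rise was that of Ciart, a repressor of the clock's activators, at 4.62 in WT and 3.36 in TAZKo. Npas2, which can take the place of Clock, rose by 2.56 and 2.94 but from a group mean of only 0.356 CPM in WT and 0.218 CPM in TAZKo. The repressor Nfil3 rose by 1.67 in TAZKo, and Hlf, an activator of the same D-box sites, rose by 2.14 in WT. Per3 and Tef were among those that fell in both genotypes, and Nr1d2 fell in WT. In normoxia all 8 clock genes called between the genotypes were higher in TAZKo, among them Ciart (1.11) and Per2 (0.84). Of all genes, 15.6% were called higher there and 14.9% lower. In hypoxia 15.8% of all genes were called higher and 16.9% lower. Of the clock genes, 4 were higher there (Cry2, Tef and Per2 among them) and 4 were lower (Hlf, Per1, Nfil3 and Per3). With library size alone as the scaling these became 6 higher and 3 lower.

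**Figure D4:**
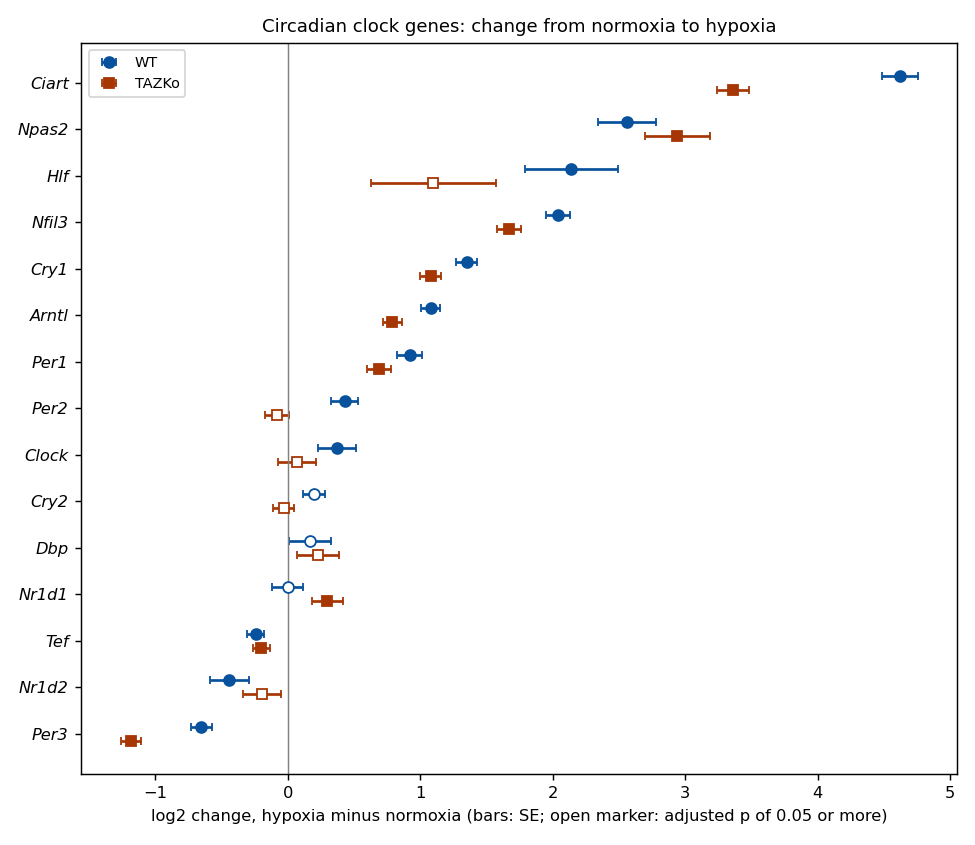
Log2 change from normoxia to hypoxia (x axis) of clock genes other than Bhlhe40, Bhlhe41 and Rora in WT (circles) and TAZKo (squares), with bars of 1 standard error and open markers for an edgeR adjusted p of 0.05 or more. Ciart (4.62 in WT and 3.36 in TAZKo) and Npas2 (2.56 and 2.94) hold the highest changes, and Per3 and Tef lie below 0 with filled markers in both genotypes.

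Stc2 (ENSMUSG00000020303, chromosome 11 from 31357307 to 31370074) had the clearest difference in response between genotypes of the 9. It stood at 1.99, 1.75 and 1.99 CPM in WT normoxia and at 13.5, 15.6 and 16.4 CPM in WT hypoxia. In TAZKo it stood at 7.66, 8.32 and 5.35 CPM in normoxia and at 20.7, 19.4 and 17.9 CPM in hypoxia. The 4 groups did not overlap, and the TAZKo normoxia samples lay between the WT normoxia and the WT hypoxia samples. Stc2 rose 7.92-fold in WT (log2 2.98, SE 0.166, adjusted p = 7.63e-09) and 2.74-fold in TAZKo (log2 1.45, SE 0.136, adjusted p = 1.9e-06). The difference between the rises was -1.53 (SE 0.219, 95% interval -2 to -1.06, adjusted p = 0.00267), and it passed the threshold in all 20 alternative analyses. In normoxia Stc2 was 3.66-fold higher in TAZKo (log2 1.87, SE 0.175, adjusted p = 2.99e-06). In hypoxia the difference of 0.34 (95% interval 0.07 to 0.62) missed the threshold after adjustment (adjusted p = 0.0556), although the samples did not overlap. It passed in 8 of 21 alternatives, among them those without WT normoxia replicate 1, TAZKo normoxia replicate 2 or TAZKo normoxia replicate 3 (adjusted p = 0.0324, 0.0499 and 0.017).

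The paralog Stc1 had 0 counts in all 6 normoxia libraries. The WT hypoxia libraries held 11, 11 and 27 counts, a mean at least 5.09-fold higher than the normoxia level taken at a floor of 3 counts per library. The TAZKo hypoxia libraries held 2, 3 and 4 counts, a mean under that floor, so no fold is given.

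Stc2 is also known as a target of ATF4, the transcription factor of the integrated stress response, which is switched on by amino acid shortage, endoplasmic reticulum stress or mitochondrial stress. All 13 genes of a list made of Atf4 and its known targets were higher in TAZKo in normoxia, with a median log2 difference of 1.17. Of all genes, 15.6% were called higher there. Cth, an enzyme of cysteine synthesis, led the list with 2.74, followed by the pseudokinase Trib3 (2.37) and the cystine transporter Slc7a11 (2.3). In hypoxia 11 of the 13 rose in WT (median change 1.24), while 7 rose and 2 fell in TAZKo (median 0.21), the 2 being Cth and Atf5. The shares of all genes were 26.0% rising in WT, and 22.2% rising and 21.6% falling in TAZKo. Atf3, a stress-induced repressor, rose by 3.87 in WT and 2.09 in TAZKo. For 9 of the 13 the log2 change in TAZKo was below that in WT by the interaction test, as for 1.71% of all genes. The median interaction was -0.88 over the list against -0.016 over all genes. Trib3 stood at 21.9 ± 4 CPM in WT normoxia, 162 ± 17.2 in WT hypoxia, 113 ± 10.1 in TAZKo normoxia and 244 ± 15.3 in TAZKo hypoxia (SD, n = 3). This is the order of groups of Stc2, but Trib3 is also the gene of nearest pattern to Stc2 in these data. Ddit3 and Nupr1 had that order too, and other genes of the list did not. Cth was highest in TAZKo normoxia (82.5 CPM) and Atf3 in WT hypoxia (111 CPM). The part of ATF4 in the level of Stc2 was not tested. Ddit4 and Sesn2 are also known as genes of this stress response.

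Ak4 (ENSMUSG00000028527, chromosome 4 from 101419277 to 101466995) stood at 25.5, 29 and 29.2 CPM in WT normoxia and at 267, 258 and 269 CPM in WT hypoxia. In TAZKo it stood at 21.6, 24 and 21.6 CPM in normoxia and at 287, 304 and 276 CPM in hypoxia. TAZKo was the lower genotype in normoxia and the higher in hypoxia, with no overlap in either. The rise was 9.49-fold in WT (log2 3.25, SE 0.0728, adjusted p = 1.25e-12) and 12.9-fold in TAZKo (log2 3.69, SE 0.0743, adjusted p = 4.79e-13). The difference between the rises was 0.45 (SE 0.0968, adjusted p = 0.0288). It missed the threshold in 8 of the 12 analyses that left out a library, all but those without WT normoxia replicate 1, WT hypoxia replicate 1, TAZKo normoxia replicate 2 or TAZKo hypoxia replicate 3, with values from 0.434 to 0.526 and adjusted p up to 0.0768. In normoxia Ak4 was 1.25-fold lower in TAZKo (adjusted p = 0.00397), and in hypoxia the difference of 0.13 missed the threshold (95% interval -0.01 to 0.27, adjusted p = 0.162). The tested genes of chromosome 4 had a median genotype difference of 0.13 in each condition. The part of this in the values for Ak4 was not tested. Of the 50-base words of its longest transcript, 11.3% also occur in the pseudogene Ak3l2-ps, so reads could be split between them.

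The adenylate kinases Ak1, Ak3 and Ak5 did not follow Ak4. Ak5 fell by 1.59 in WT, from 72.4 ± 3.31 to 24.1 ± 3.79 CPM (SD, n = 3), and by 1.02 in TAZKo. Ak1 fell by 0.25 in WT and rose by 0.19 in TAZKo, a rise that was lost with upper quartile scaling or library size alone (adjusted p = 0.0596 and 0.258). Ak3, which like Ak4 sits in the mitochondrial matrix, changed by -0.15 in WT (adjusted p = 0.137) and fell by 0.23 in TAZKo.

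Ankrd37 (ENSMUSG00000050914, chromosome 8 from 45996902 to 46005707) stood at 2.43, 2.02 and 2.06 CPM in WT normoxia and at 35.2, 31.5 and 35.6 CPM in WT hypoxia. In TAZKo it stood at 1.6, 1.52 and 1.14 CPM in normoxia and at 31.6, 26.9 and 27.8 CPM in hypoxia. The genotypes overlapped in hypoxia, where TAZKo replicate 1 reached into the WT range, and did not overlap in normoxia. The rise was 15.7-fold in WT (log2 3.97, SE 0.12, adjusted p = 1.82e-11) and 20.5-fold in TAZKo (log2 4.36, SE 0.127, adjusted p = 1.82e-11). Ankrd37 was 1.55-fold lower in TAZKo in normoxia (log2 -0.63, SE 0.166, adjusted p = 0.0108). In hypoxia the difference was -0.25 (95% interval -0.45 to -0.05, adjusted p = 0.0514), and 9 of 21 alternatives put it past the threshold (adjusted p from 0.0169 to 0.17 over all of them). These include the analyses without WT normoxia replicate 1 or 3, WT hypoxia replicate 2, TAZKo normoxia replicate 1 or 3, or TAZKo hypoxia replicate 1. The tested genes of chromosome 8 had a median genotype difference of -0.16 in normoxia and -0.15 in hypoxia. The part of this in the values for Ankrd37 was not tested. Ankrd37 shares 22.7% of its exon bases with Lrp2bp on the other strand, and reads of the pair cannot be told apart without strand. Lrp2bp was counted 3 to 11 times per library in normoxia and 22 to 93 times in hypoxia.

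**Figure D5:**
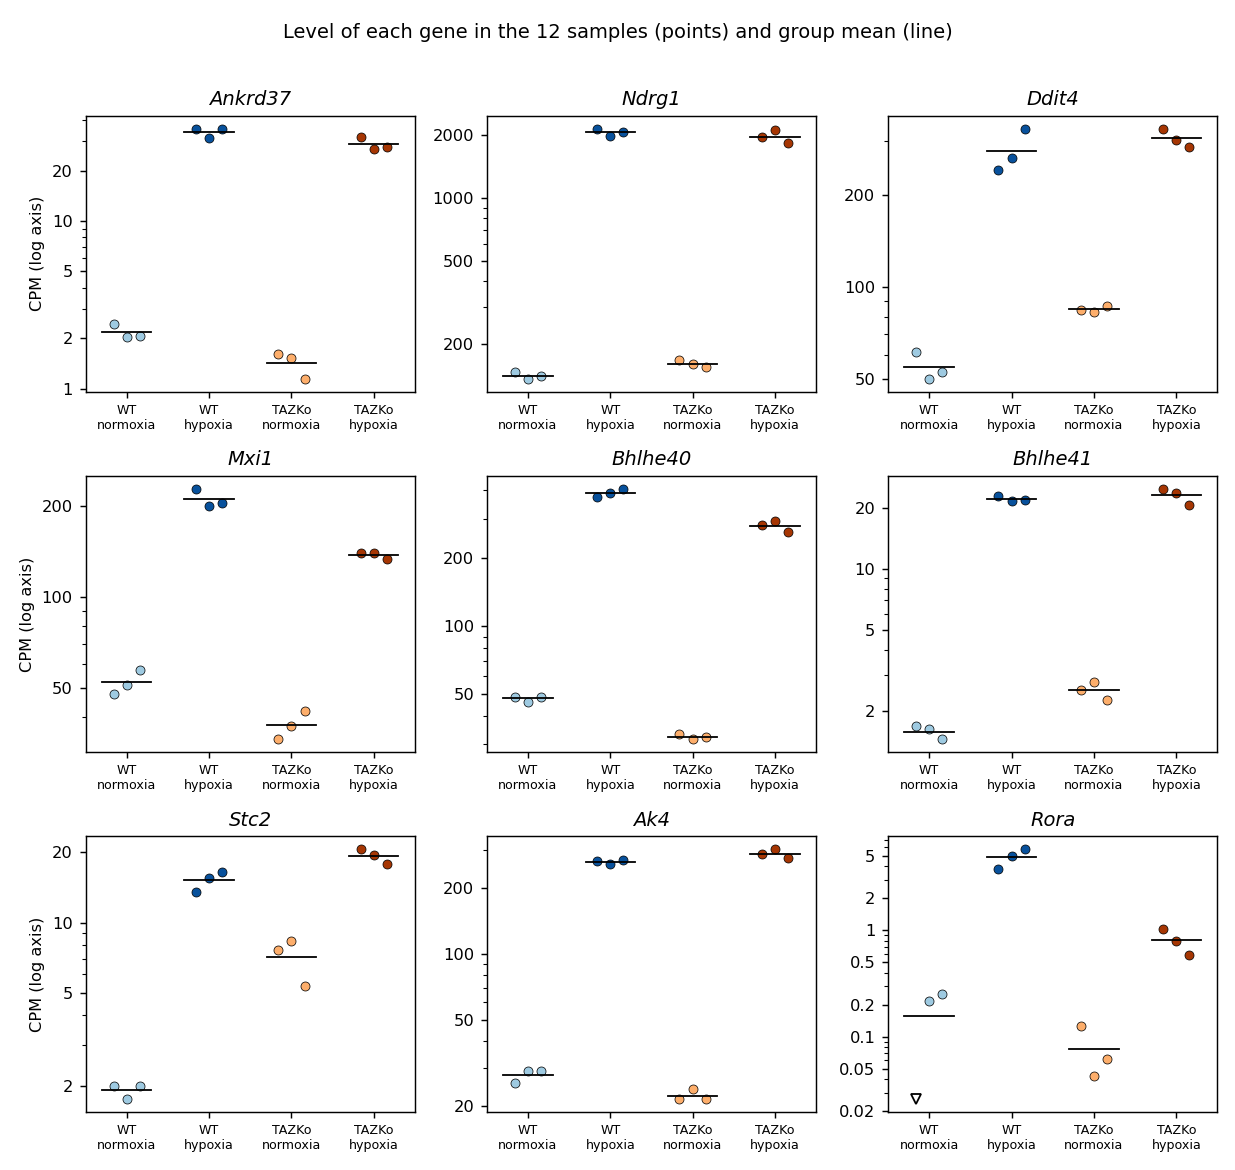
CPM (y axis, log scale) of each of the 9 genes in each of the 12 samples (points) with the group mean (line), in WT and TAZKo under normoxia and hypoxia. The open triangle for Rora marks a library with 0 counts, drawn at the foot of the axis. In all 9 panels the hypoxia samples lie above the normoxia samples of the same genotype, and for Stc2 the TAZKo normoxia samples lie between the WT normoxia and WT hypoxia samples.

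Of the 9 genes, 2 had a hypoxia response that differed between genotypes by the interaction test: Stc2, whose rise was smaller in TAZKo, and Ak4, whose rise was larger. Over all genes, 1.71% had a negative interaction (the log2 change in TAZKo below that in WT) and 0.722% a positive one. The other 7 values ran from -1.57 for Rora to 0.38 for Ankrd37, and the 9 genes had a median of -0.25. For Ddit4 the difference was -0.49 (95% interval -0.81 to -0.17, adjusted p = 0.114). It passed in 3 of 20 alternatives, with no filter on low counts (-0.439, adjusted p = 0.00736), without WT normoxia replicate 1 (-0.579, adjusted p = 0.0283) and without WT hypoxia replicate 1 (-0.558, adjusted p = 0.0378). For Ndrg1 it was -0.25 (95% interval -0.44 to -0.06, adjusted p = 0.171) and for Ankrd37 0.38 (95% interval -0.03 to 0.79, adjusted p = 0.356).

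On a scale of CPM per kilobase of exon, which allows levels of different genes to be compared, Ddit4 was the highest in WT normoxia at 31.2 ± 3.35 (SD, n = 3), ahead of Ndrg1 at 21.4 ± 0.782. In WT hypoxia Ndrg1 led at 313 ± 13.3, ahead of Ddit4 at 159 ± 25.8. Next in WT normoxia came Bhlhe40 at 10.2, Mxi1 at 7.65, Ak4 at 6.01, Ankrd37 at 1.41, Stc2 at 0.37, Bhlhe41 at 0.236 and Rora at 0.0121. In WT hypoxia Ak4 (57) had passed Mxi1 (31.1) and Bhlhe41 (3.3) had passed Stc2 (2.93), and no neighbours in either order overlapped between samples. In TAZKo hypoxia Ndrg1 (299) and Ddit4 (175) again led, followed by Ak4 (62.2) and Bhlhe40 (59.1). There the pairs Ak4 and Bhlhe40, Mxi1 and Ankrd37, and Stc2 and Bhlhe41 overlapped. In TAZKo normoxia Stc2 (1.37) stood above Ankrd37 (0.923), though their samples overlapped, as did those of Mxi1 and Ak4.

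The patterns of single genes over the 12 samples were compared by the root mean square difference of centred log2 CPM, among 9430 other genes with a mean of at least 10 CPM. A value of 0 would mean the same pattern, and the number describes likeness only. The closest match of any of the 9 was that of Ndrg1 with Egln3, the oxygen-sensing prolyl hydroxylase (0.081). Egln3 stood at 16.2 ± 0.741 CPM in WT normoxia, 216 ± 17.6 in WT hypoxia, 18.2 ± 0.611 in TAZKo normoxia and 223 ± 5.45 in TAZKo hypoxia (SD, n = 3). Ankrd37 was nearest to Bnip3 (0.193) and Car12 (0.213), and Bhlhe40 to Egln1 (0.161), a second oxygen-sensing hydroxylase, and the transcription factor Maff (0.169). Bhlhe41 was nearest to Ero1l, an oxidase of the endoplasmic reticulum (0.164), and to Egln3 (0.227). Ddit4 was nearest to the transcription factor Klf4 (0.128) and the hexokinase Hk1 (0.157), and Mxi1 to the complement gene C3 (0.138) and Ppp1r3b (0.16), a glycogen-targeting phosphatase subunit. Ak4 was nearest to 2500002B13Rik (0.21) and Fam162a (0.218). Stc2 was nearest to 2 genes of the ATF4 response, Trib3 (0.276) and Ddit3 (0.305). Rora had no close match, and Atf3, among its nearest, was at 0.793. Its normoxia libraries held only 0 to 7 counts, and genes as scarce as Rora were not among those compared. Distances to Rora therefore include much counting error. Among the 9 genes themselves, Ndrg1 and Bhlhe41 were the most alike (0.24) and Stc2 and Rora the least (1.54).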

How the data were processed

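Each sample has a deposited table in which the authors give read counts, as whole numbers, for each Ensembl gene ID, with no normalization recorded. Per the labels' protocols, RNA was extracted with Trizol and libraries were made with the Illumina TruSeq RNA v2 kit, which does not mark strand. The submitters' processing notes name the build mm10, and the aligner, the counting program and its handling of reads shared between genes are not given in the sources used here. Of 48709 IDs, 48349 matched a gene name table and 360 did not. Coordinates and exon lengths are those of GENCODE M21 on GRCm38, looked up by ID.

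The filterByExpr function set aside genes with low counts (14408 were left), counts were scaled by TMM, and edgeR 4.0.16 (R 4.3.3) fitted its quasi-likelihood model to all 12 libraries with 1 coefficient per group. P-values were adjusted by Benjamini and Hochberg's method over all tested genes of a contrast. Log2 changes come from this fit with edgeR's default prior count, SE is the change divided by the square root of F, and 95% intervals are unadjusted. A prior count of 2 was used only for the log2 CPM of the pattern and replicate number comparisons. CPM values use the TMM scale. The model was tested on simulated counts. Labels do not say what a replicate number marks. Deviations from the group means correlated above 0.1 in every same-numbered pair between WT normoxia and WT hypoxia (0.37, 0.2 and 0.15) and between WT and TAZKo in normoxia (0.35, 0.15 and 0.23), where adding the number as a block changed no call of the 9 genes. The other comparisons had pairs below 0.1. The main fit treated no comparison as paired, and the block was used only as an alternative. Lanes come from the names of the tables, and within-lane values use log2(CPM + 0.1).

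The 9 genes, the lists of related genes and the rule for naming genes were chosen with earlier results of these data known. The rule took the 9 genes, Taz, Hif1a, Epas1, Arnt, the paralogs, up to 3 genes per list and contrast with the largest change among those called, and for each of the 9 the 2 genes of nearest pattern. Genes outside this rule that were named to account for a count of 5 or fewer, or to follow a named gene into another contrast, were chosen after their values were seen. The alternatives were DESeq2 1.42.0 size factors, upper quartile scaling, library size alone, the DESeq2 Wald test, no filter, a mean of 5 CPM or more, the replicate number as a block, lane as a covariate, the 6 samples compared alone, and leaving out each library. Some genes that this rule takes are not reported here. Promoter sequences are those of RefSeq on GRCm38.p6.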

Additional observations from a re-analysis of the deposited data

Results flagged for a closer look

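For 22 genes, counting the 9 HIF-1 induced genes and the lists around them, the change from normoxia to hypoxia differed between TAZKo and WT by the interaction test itself (edgeR quasi-likelihood, adjusted p under 0.05). Values are the log2 change in TAZKo minus that in WT, so a negative value is a smaller rise or a deeper fall in TAZKo. Of the 9 HIF-1 induced genes these were Stc2 (-1.53, adjusted p = 0.00267) and Ak4 (0.45, adjusted p = 0.0288). Among Atf4 (-0.72) and its targets the values were -1.79 for Trib3, -1.78 for Atf3, -1.68 for Chac1, -1.42 for Slc7a11, -1.27 for Cth, -1.12 for Sesn2, -0.88 for Nupr1 and -0.85 for Ddit3. Deptor, an inhibitor of mTOR, had -1.05. Among the other HIF-1 targets the value was negative for the angiogenic factor Vegfa (-1.27), for Car9 (-1.08) and for Ero1l (-0.67), and the rise was larger in TAZKo for Bnip3 (0.45, adjusted p = 0.045) and for the collagen prolyl hydroxylase subunit P4ha1 (0.38). Among the clock genes Ciart rose less in TAZKo (-1.27), and Per3 fell further (-0.52). The value was positive for Mycn (0.56), which rose more in TAZKo, for Ak5 (0.57), which fell by less, and for Ak1 (0.44), which fell in WT and rose in TAZKo.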

How the results depend on the processing

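The 9 genes gave 45 results over 5 contrasts, and of 930 values under the alternatives 882 kept their direction and their side of the threshold, 24 lost a call, 23 gained one and 1 changed sign (Bhlhe41 between genotypes in hypoxia, -0.00143 without TAZKo hypoxia replicate 1). Both hypoxia responses kept all 9 calls except with the filter at a mean of 5 CPM, which leaves Rora out (8). The count between genotypes in normoxia ran from 7 to 8. In hypoxia the main count of 3 became 6 with only the 6 samples compared and 3 to 5 when a library was left out. For the interaction, leaving out a library gave 1 to 3 of the 9 genes, against 2, and the count over all genes ran from 174 to 711, against 350. That count was 578 with the DESeq2 Wald test and 727 with no filter. It moved by over 1.5 times without any library except WT normoxia replicates 2 and 3, and rose only without WT normoxia replicate 1 (556) or WT hypoxia replicate 1 (711). The causes were not tested.

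Scaling by library size alone lowered the median change of all genes in hypoxia to -0.097 in WT and -0.103 in TAZKo, and the share of calls that were rises from 51% to 38.1% in WT and from 50.7% to 36% in TAZKo. Every rise of the 9 genes passed under that scaling too. With the replicate number as a block, 5 of the 9 genes differed between genotypes in hypoxia (Ankrd37 and Stc2 added, adjusted p = 0.0169 and 0.0431), the interaction of Bhlhe41 passed (-0.608, adjusted p = 0.0473), and 639 genes had an interaction. Deviations of same-numbered samples correlated at a mean of 0.13 (-0.09 to 0.37 over 18 pairs), against -0.06 for different numbers, and 11 of 12 samples correlated best with one of their own number. Depth limits Rora in normoxia (0 to 7 counts per library) and Stc1.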
